A study of Mus musculus with 5 samples.

Results

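A set of 10 alveolar macrophage maturation genes was followed across the immune cells of the fetal lung: Pparg, Fabp4, Fabp5, Krt79, Atp6v0d2, Ear1, Ear2, Lpl, Plet1 and Olr1. They were taken as the rows of the 5 count tables that carry these symbols, and all 10 were found among the 32285 genes of each table. They had been chosen by their expression differences between the Het and KO libraries, so their values here are a description and no p is given for them. Where the fit over all genes calls some of them, the count is given beside that of all genes and supports nothing. The counts are unique molecular identifiers (UMIs) from droplet-based 3′ single-cell libraries of whole mouse lungs at E18.5, with 1 library per embryo. Per the labels, 2 embryos were Zswim8+/- (Het1 and Het2) and 3 were Zswim8-/- (KO1, KO2 and KO3). ZSWIM8 directs a ubiquitin ligase to microRNA-bound Argonaute proteins, and the study, by its title, is about RNA levels in embryonic tissues without it. The strain, the allele and the litters are not named by the labels, and no Zswim8+/+ lung was analysed here, so Het is the reference throughout.

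Alveolar macrophages derive from fetal monocytes that enter the lung before birth, pass through a pre-alveolar stage and mature around birth as the air spaces open. The cytokine GM-CSF, made by alveolar epithelium, and TGF-beta induce the nuclear receptor PPARG in these cells. PPARG in turn drives genes of lipid uptake, transport and storage, which mature alveolar macrophages need to clear surfactant. Interstitial macrophages of the same lung, marked by C1q complement genes and Mrc1, do not follow this programme.

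Filtering kept 3051 to 4634 cells per library, with medians of 9714 to 12678 UMIs per cell, and any pair of libraries shared 17 to 44 cell barcodes. Both Het libraries and KO3 were male by Y-linked UMIs, while KO1 and KO2 were female, so sex was partly confounded with genotype. Zswim8 itself was measured in the immune cells at 29.6 and 32.0 CPM (counts scaled to depth) in Het and at 24.1, 29.3 and 29.7 CPM in KO. A 3′ count does not show whether a transcript is intact and the deleted part is not named, so this level does not check the labels. Immune cells numbered 2338 and 2258 in the Het libraries, against 1105 (KO1), 1798 (KO2) and 2025 (KO3).

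The immune cells were clustered with the 10 genes left out, and clusters were named only where marker genes allowed it. Monocyte-like clusters held 346 and 325 Het cells and 94, 360 and 331 KO cells, and interstitial macrophage-like clusters held 232 and 216 Het cells and 315, 358 and 425 KO cells. A pre-alveolar macrophage-like cluster led by Acaa1b, Flvcr2 and Sgk1 held 395 and 367 Het cells and 83, 103 and 187 KO cells. This name rests on 3 markers with a mean log2 fold of 1.06, just over the limit of 1 for a name, and none of the 3 was among its 10 leading genes. The name did not hold in every other clustering tried, as given below. A pair of further pre-alveolar macrophage-like clusters led by Spp1, Car4, Inhba and Car6 held 179 and 190 Het cells and 1, 18 and 32 KO cells. A non-cycling cluster led by Htra3 and Gpr171, with 253 and 246 Het cells and 108, 179 and 213 KO cells, and the cycling clusters, with 415 and 431 Het cells and 242, 409 and 485 KO cells, could not be named. Cluster sizes follow the genes that define the clusters, so the cell numbers were not tested.

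In the sums over all immune cells of a library, all 10 genes were lower in every KO library than in either Het library. By edgeR's quasi-likelihood test all 10 had an adjusted p under 0.05 in that direction, where 4.40% of the 13903 genes tested did, and the groups did not overlap in that direction for 20.7% of genes. Both counts describe genes chosen for this difference, and nothing is read from them. The differences were of very unequal size. Atp6v0d2, Krt79 and Fabp4 differed by log2 fold changes of -4.29, -4.20 and -3.29, while the other 7 genes lay between -1.05 and -0.50. KO3, the single male KO library, was among those below both male Het libraries. That follows from the first sentence here, so nothing is read from it about sex. In such sums, fewer cells of a type and less RNA per cell cannot be told apart, and the values below are therefore also given by cell group. Of the immune cells, the 3 pre-alveolar macrophage-like clusters held 24.6% and 24.7% in Het and 7.60%, 6.73% and 10.8% in KO.

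**Figure D1:**
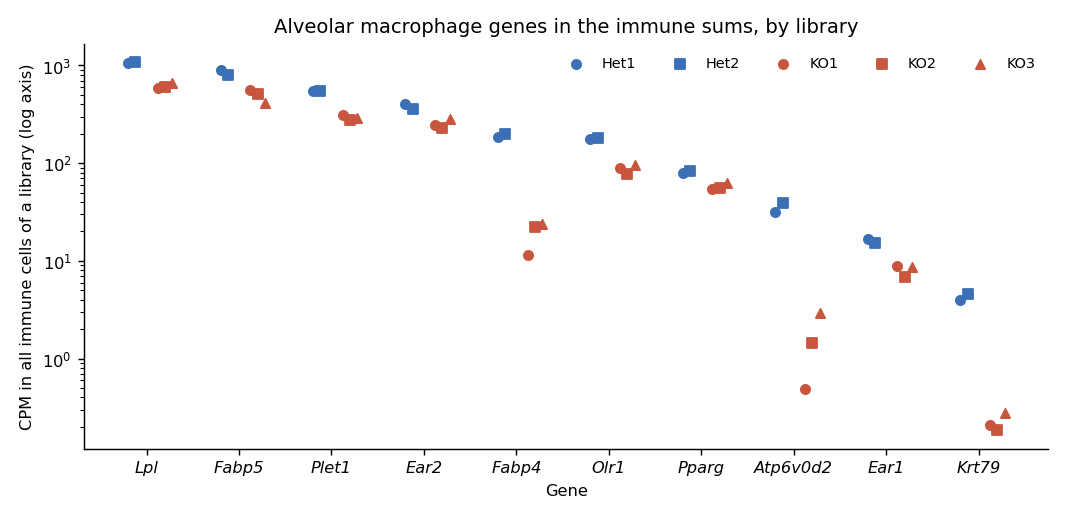
Level of each gene in the summed immune cells of each library, in CPM on TMM-scaled library sizes (log axis). Blue symbols are the 2 Het libraries and red symbols the 3 KO libraries, each symbol 1 library. The red symbols lie below both blue ones for each gene, with the widest gaps for Fabp4, Atp6v0d2 and Krt79.

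Across cell groups in Het, the genes showed 2 patterns. Pparg, Lpl, Plet1, Olr1, Ear1, Ear2 and Krt79 had their highest mean level in the Acaa1b-led pre-alveolar cluster. Fabp4, Fabp5 and Atp6v0d2 had theirs in the Spp1- and Car4-led clusters. For 8 of the 10 genes, monocyte-like and interstitial macrophage-like cells were the lowest groups. The exceptions were Fabp5, higher in monocyte-like cells than in the Htra3-led cluster, and Atp6v0d2, at 1.12 CPM or less in all of these. Levels by cell group are CPM of the group's own UMI total in a library. A 3′ UMI is counted per molecule and not per base of transcript, so levels of different genes are comparable only up to capture efficiency.

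**Figure D2:**
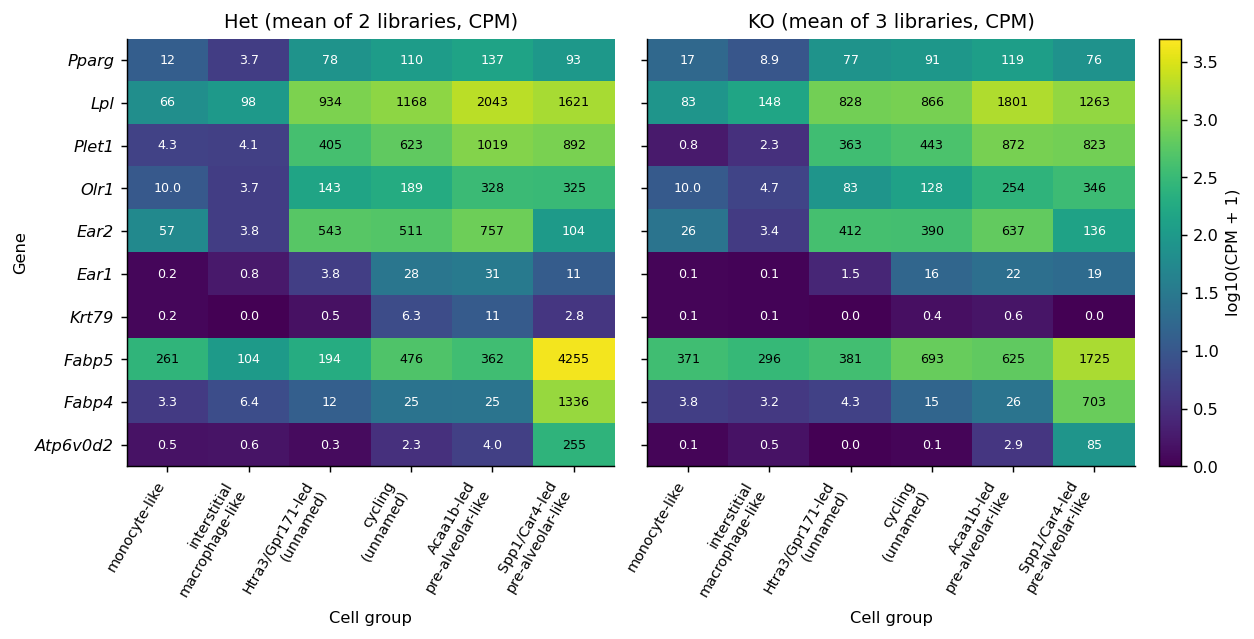
Mean level of each gene (rows, CPM written in each cell) in 6 groups of immune cells (columns), in Het (left) and KO (right), with colour on a log10(CPM + 1) scale. KO1 is left out of the Spp1- and Car4-led column, where it has 1 cell. Fabp4, Fabp5 and Atp6v0d2 peak in the Spp1- and Car4-led clusters, and the other 7 genes in the Acaa1b-led cluster in Het.

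Pparg (chromosome 6, 115360951 to 115490399, plus strand, GRCm38 here and below) encodes the nuclear receptor that sets alveolar macrophage identity. Its level in Het1 and Het2 was 131 and 143 CPM in the Acaa1b-led cluster, 107 and 114 in the cycling clusters, 99.0 and 86.9 in the Spp1- and Car4-led clusters, and 77.7 and 78.2 in the Htra3-led cluster. It was 10.2 and 13.7 CPM in monocyte-like cells and 5.14 and 2.24 in interstitial macrophage-like cells. The Het ranges of neighbours in this order did not overlap. Pparg was therefore already present outside the clusters led by Spp1 and Car4, and lower inside them than in the Acaa1b-led cluster.

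In the immune sums Pparg lay at 79.7 and 83.4 CPM in Het and at 53.9, 55.1 and 63.3 CPM in KO, on TMM-scaled library sizes. The log2 fold change of KO against Het was -0.50, with a standard error (SE) of 0.08. Within the Acaa1b-led cluster the levels were 134 and 145 CPM in Het and 116, 122 and 119 in KO, a log2 fold change of -0.23 (SE 0.08). Within the Htra3-led cluster the groups overlapped, with 79.8 and 78.3 CPM in Het and 63.7, 83.9 and 83.6 in KO. The gap between genotypes was thus smaller inside these clusters than over all immune cells.

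Lpl (chromosome 8, 68880491 to 68907448, plus strand) encodes lipoprotein lipase, which frees fatty acids from lipoproteins. It was highest in the Acaa1b-led cluster, at 2085 and 2001 CPM in Het1 and Het2. The Spp1- and Car4-led clusters had 1559 and 1683 CPM, the cycling clusters 1161 and 1174, and the Htra3-led cluster 988 and 880. Monocyte-like cells had 66.2 and 66.5 CPM and interstitial macrophage-like cells 95.1 and 100.1. Red-cell barcodes of the same libraries, with over 50% haemoglobin UMIs, had 12.9 and 12.7 CPM. Such barcodes also hold free RNA, but red-cell RNA dilutes it, so their CPM does not give its level in other cells. Lpl went from 1068 and 1075 CPM in the Het immune sums to 588, 601 and 669 in KO, a log2 fold change of -0.79 (SE 0.07). In the Acaa1b-led cluster alone it was -0.21 (SE 0.07), with 2125 and 2028 CPM in Het and 1852, 1835 and 1701 in KO. The groups did not overlap in either sum, but the distance was much shorter in the single cluster.

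Olr1 (chromosome 6, 129485244 to 129507165, minus strand) encodes a scavenger receptor for oxidised lipoprotein. Its Het levels were alike in both kinds of pre-alveolar cluster, at 334 and 322 CPM in the Acaa1b-led cluster and 332 and 319 in the Spp1- and Car4-led clusters, and these ranges overlapped. In the immune sums Olr1 was at 178 and 183 CPM in Het and at 89.6, 78.3 and 94.7 in KO, a log2 fold change of -1.05 (SE 0.08). The Htra3-led cluster had 136 and 154 CPM in Het and 71.2, 95.6 and 81.8 in KO (log2 fold change -0.79, SE 0.11), and the Acaa1b-led cluster 340 and 326 in Het and 279, 243 and 237 in KO (-0.40, SE 0.09).

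Plet1 (chromosome 9, 50494525 to 50505482, plus strand) encodes a surface protein of fetal epithelia and of pulmonary macrophages. It was at 1035 and 1003 CPM in the Acaa1b-led cluster and 896 and 889 in the Spp1- and Car4-led clusters, against 3.61 and 5.03 in monocyte-like and 2.57 and 5.59 in interstitial macrophage-like cells. Red-cell barcodes had 6.68 and 5.36 CPM, which does not give the level of free RNA in other cells. The part of free RNA in the low levels of Plet1 was not tested. Dendritic cell-like clusters had a mean of 36.4 CPM in Het and epithelial cells 59.3. The immune sums held 542 and 545 CPM in Het and 311, 276 and 289 in KO, a log2 fold change of -0.90 (SE 0.07). The gene is overlapped on the other strand by Plet1os, which is among the leading genes of the Htra3-led cluster, and how the counting used strand is not stated in the sources used here. Pparg, Ear1 and Ear2 also have an annotated gene on the other strand.

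Ear1 (chromosome 14, 43818765 to 43875517, minus strand) and Ear2 (chromosome 14, 44102654 to 44103534, plus strand) encode eosinophil-associated ribonucleases that lung macrophages also express. Both are shown because the copies are so alike that their counts may trade reads. The bases just before a start site given by RefSeq on GRCm38.p6 are written 5′ to 3′ on the gene's strand, with a match to the C/EBP motif TTGCNNAA in capitals, at chr14:43819640-43819889 for Ear1 and chr14:44102404-44102653 for Ear2.
Ear1: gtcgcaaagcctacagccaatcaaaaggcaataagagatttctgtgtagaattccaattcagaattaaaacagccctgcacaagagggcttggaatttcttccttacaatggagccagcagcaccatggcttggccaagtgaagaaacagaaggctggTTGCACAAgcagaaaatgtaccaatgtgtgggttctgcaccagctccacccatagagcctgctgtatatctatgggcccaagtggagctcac
Ear2: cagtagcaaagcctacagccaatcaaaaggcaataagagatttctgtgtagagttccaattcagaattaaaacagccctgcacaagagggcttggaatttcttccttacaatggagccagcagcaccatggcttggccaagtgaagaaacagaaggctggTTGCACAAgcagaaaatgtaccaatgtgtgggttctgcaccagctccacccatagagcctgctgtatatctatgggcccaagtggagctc
The RefSeq start used for Ear1 lies inside the longer span that GENCODE gives the gene, so these annotations place its start differently. Aligned, these 250-base stretches were identical at 246 of 248 positions, and the longest transcripts were 96.8% identical. Of the 91-base windows near the 3′ end, 25.8% of those of Ear1 and 9.27% of those of Ear2 occur in another Ear gene or pseudogene. The split of counts between them is uncertain for that reason. TTGCNNAA, searched on both strands, was found in 9.56% of 32851 promoters of the same length, and in 4 of the 8 promoters listed for these genes, 1 each of Ear1, Ear2, Plet1 and Pparg. The nuclear receptor motif AGGTCA was found in 4 of the 8 and in 14.0% of all promoters. Its direct repeat AGGTCANAGGTCA and the PU.1 motif GAGGAAGT were found in none of the 8, and in 0.0335% and 2.44% of all promoters. Promoters of Fabp4, Fabp5, Atp6v0d2 and Lpl were not used here.

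Despite the likeness of their sequences, the levels of the Ear genes differed widely. Ear2 was at 801 and 713 CPM in the Acaa1b-led cluster of Het1 and Het2, and Ear1 at 30.4 and 32.6. Both were lower in the Spp1- and Car4-led clusters, where Ear2 had 113 and 94.3 CPM and Ear1 12.1 and 9.62. Ear2 was at 571 and 516 CPM in the Htra3-led cluster, and Ear1 at 4.8 and 2.78. Ear2 thus differed from Fabp4, being high in the Htra3-led cluster and low in the Spp1- and Car4-led clusters. In the immune sums Ear2 went from 403 and 357 CPM in Het to 248, 230 and 283 in KO (log2 fold change -0.58, SE 0.10), and Ear1 from 16.6 and 15.4 to 8.77, 6.77 and 8.76 (log2 fold change -0.98, SE 0.12). In the pre-alveolar sums, which join the Acaa1b-led cluster with the Spp1- and Car4-led ones, Ear2 overlapped between the groups at 556 and 468 CPM in Het and 616, 486 and 555 in KO. The KO cells of that sum come mostly from the Acaa1b-led cluster, where Ear2 was higher than in the Spp1- and Car4-led ones. In the Acaa1b-led cluster alone, Ear2 was at 817 and 723 CPM in Het and 644, 584 and 674 in KO (log2 fold change -0.28, SE 0.09). Ear1 was there at 31.0 and 33.0 CPM in Het and 28.3, 23.2 and 13.1 in KO (-0.71, SE 0.21). Neither overlapped between the groups, as was so for 26.9% of all genes tested there. Ear2 had -0.43 in the Htra3-led cluster and -0.40 in the cycling clusters.

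Krt79 (chromosome 15, 101929332 to 101940324, minus strand) encodes a type II keratin and is used as an alveolar macrophage marker in mice. The sequence before its start, chr15:101940325-101940574, is shown because the difference of this gene was as large inside a single cluster as over all immune cells. It held none of the motifs searched, so no letters are in capitals.
Krt79: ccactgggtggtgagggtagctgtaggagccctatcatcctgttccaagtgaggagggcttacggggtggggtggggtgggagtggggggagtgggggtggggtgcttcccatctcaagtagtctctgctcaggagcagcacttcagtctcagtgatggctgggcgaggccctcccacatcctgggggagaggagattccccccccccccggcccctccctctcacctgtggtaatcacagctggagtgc
Krt79 was rare, with 111 and 132 UMIs in all Het immune cells, against 3 (KO1), 4 (KO2) and 8 (KO3). Those UMIs came from 51 and 48 Het cells and from 3, 4 and 7 KO cells. The share of immune cells with a UMI was 2.18% (95% exact binomial interval 1.63% to 2.86%) and 2.13% (1.57% to 2.81%) in Het, and 0.271%, 0.222% and 0.346% in KO. Red-cell barcodes of Het1 and Het2, at median depths of 2609 and 2564 UMIs against 12126 and 12340 in immune cells, had a Krt79 UMI in 0% and 0.0477%, and those of the KO libraries in 0%. With all cells thinned to 3000 UMIs the shares were 0.918% and 0.957% in the Het immune cells. Intervals of this kind cover counting error only.

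In Het, Krt79 stood at 9.96 and 11.2 CPM in the Acaa1b-led cluster, at 4.68 and 7.89 in the cycling clusters and at 4.59 and 0.987 in the Spp1- and Car4-led clusters. In KO it was at 0.775, 0.669 and 0.359 CPM in the Acaa1b-led cluster, which is 1 UMI per library, and at 0.386, 0.251 and 0.577 CPM in the cycling clusters. Summed over libraries, 112 UMIs in Het stood against 3 in KO in the Acaa1b-led cluster, a ratio per UMI of 19.6. In the cycling clusters 105 stood against 10, a ratio of 14.95. No interval is given for these ratios, since a cell can hold several Krt79 UMIs and the libraries are pooled. The log2 fold change was -4.23 (SE 0.47) in the Acaa1b-led cluster, -3.86 (SE 0.41) in the cycling clusters and -4.20 (SE 0.26) over all immune cells. Of the 10 genes, Krt79 was the one whose difference kept this size from the immune sums to the single cluster.

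Fabp4 (chromosome 3, 10204088 to 10208576, minus strand) encodes a fatty acid-binding protein and is a classic target of PPARG. In Het1 and Het2 it was at 1368 and 1303 CPM in the Spp1- and Car4-led clusters, and at 14.0 and 36.6 in the Acaa1b-led cluster, where its range overlapped that of the cycling clusters (26.8 and 23.2). These 2 Spp1- and Car4-led clusters held 92.6% and 92.1% of all Fabp4 UMIs of Het immune cells, and 7.66% and 8.41% of the cells. Fabp4 was therefore carried by a small group of cells. In KO1, with 1 cell there, the share of UMIs was 3.01%, and in KO2 and KO3, with 18 and 32 cells, it was 69.9% and 53.4%. Those KO2 and KO3 cells had 870 and 536 CPM, below both Het libraries. Over all immune cells Fabp4 went from 184 and 201 CPM in Het to 11.6, 22.3 and 23.7 in KO, 9.78-fold lower (log2 fold change -3.29, SE 0.22). In the Acaa1b-led cluster alone the groups overlapped, at 14.3 and 37.1 CPM in Het and 33.0, 15.9 and 27.9 in KO (log2 fold change 0.01, SE 0.33).

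Atp6v0d2 (chromosome 4, 19876841 to 19922605, minus strand) encodes a subunit of the proton pump of lysosomes, known from osteoclasts and macrophages. It followed Fabp4 closely, with 246 and 265 CPM in the Spp1- and Car4-led clusters of Het1 and Het2 and at most 5.78 CPM in any other of the 6 groups. The Spp1- and Car4-led clusters held 96.3% and 94.95% of its immune UMIs in Het. In KO2 and KO3 the same clusters had 56.4 and 113 CPM, from 22 and 77 UMIs, and in KO1 no UMI in the 1 cell. Over all immune cells the gene went from 31.9 and 39.6 CPM in Het to 0.487, 1.43 and 2.91 in KO (log2 fold change -4.29, SE 0.32). With the Spp1- and Car4-led clusters left out, the groups still did not overlap, at 1.34 and 2.30 CPM in Het and 0.492, 0.425 and 0.249 in KO (log2 fold change -2.28, SE 0.40). In the Acaa1b-led cluster alone they overlapped, at 2.26 and 5.86 CPM in Het and 4.72, 3.31 and 0.707 in KO (-0.77, SE 0.61). These levels rest on 12 and 30 UMIs in Het and 6, 5 and 2 in KO.

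**Figure D3:**
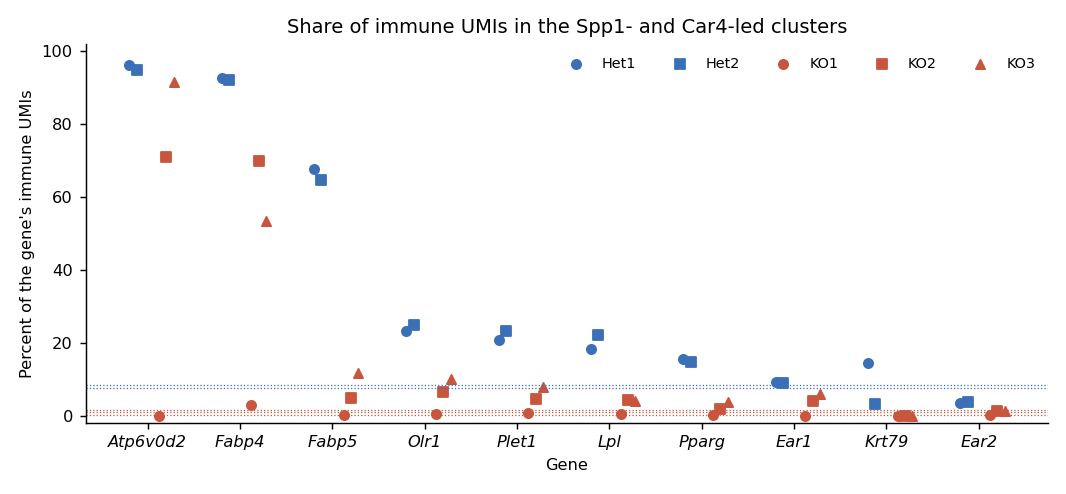
Percent of each gene's UMIs in all immune cells that came from the Spp1- and Car4-led clusters, by library (blue Het, red KO). Dotted lines mark the percent of immune cells in those clusters in each library. Atp6v0d2 and Fabp4 lie above 90% in both Het libraries and Fabp5 at 67.6% and 64.8%, while the other 7 genes lie below 25%.

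Fabp5 (chromosome 3, 10012548 to 10016607, plus strand) encodes the epidermal fatty acid-binding protein and lies near Fabp4 on the same chromosome. Its longest transcript was 65.3% identical to that of Fabp4 where they align, and no 91-base window near the 3′ end was shared. In Het it was at 4851 and 3659 CPM in the Spp1- and Car4-led clusters and at 359 and 366 in the Acaa1b-led cluster. Het monocyte-like cells had 289 and 234 CPM, and interstitial macrophage-like cells 115 and 93.4. Fabp5 was thus present in all 6 groups and peaked in the same clusters as Fabp4.

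The difference between genotypes in Fabp5 turned with the cells that were summed. Over all immune cells it was lower in KO, at 566, 514 and 414 CPM against 896 and 803 in Het (log2 fold change -0.77, SE 0.12). In the Acaa1b-led cluster it was higher in KO, at 743, 653 and 476 CPM against 366 and 371 (log2 fold change 0.75, SE 0.14). The Htra3-led cluster had 516, 386 and 242 CPM in KO against 188 and 204 in Het (log2 fold change 0.94, SE 0.21), and the cycling clusters 807, 733 and 546 against 483 and 472 (log2 fold change 0.54, SE 0.13). Interstitial macrophage-like cells had 440, 270 and 173 CPM in KO against 121 and 92.4 in Het (log2 fold change 1.45, SE 0.32). KO1, a female library, was the highest KO library in each of these 4 groups, and KO3, the single male one, the lowest. Each KO library was above both Het libraries, which were male, so sex is partly confounded with the size of these differences. In monocyte-like cells the groups overlapped, at 270, 455 and 380 CPM in KO and 299 and 236 in Het.

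The Spp1- and Car4-led clusters went the other way for Fabp5, with 1388 and 2062 CPM in KO2 and KO3 against 4851 and 3659 in Het. They held 67.6% and 64.8% of the Fabp5 UMIs of Het immune cells, and 0.0369%, 4.85% and 11.8% in KO. With these clusters left out, the log2 fold change over the remaining immune cells was 0.56 (SE 0.15), from 329 and 325 CPM in Het to 571, 501 and 376 in KO. Epithelial cells hold much Fabp5, and a list of 13 epithelial markers summed to 551 and 423 CPM in the Acaa1b-led cluster of Het and to 592, 365 and 504 in KO, with overlapping groups. In interstitial macrophage-like cells the same list summed to 781 and 503 CPM in Het and 836, 408 and 511 in KO, again overlapping. Red-cell barcodes had 61.0 and 36.8 CPM of Fabp5 in Het and 69.8, 21.3 and 31.5 in KO. The part of free RNA in the Fabp5 levels was not tested.

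**Figure D4:**
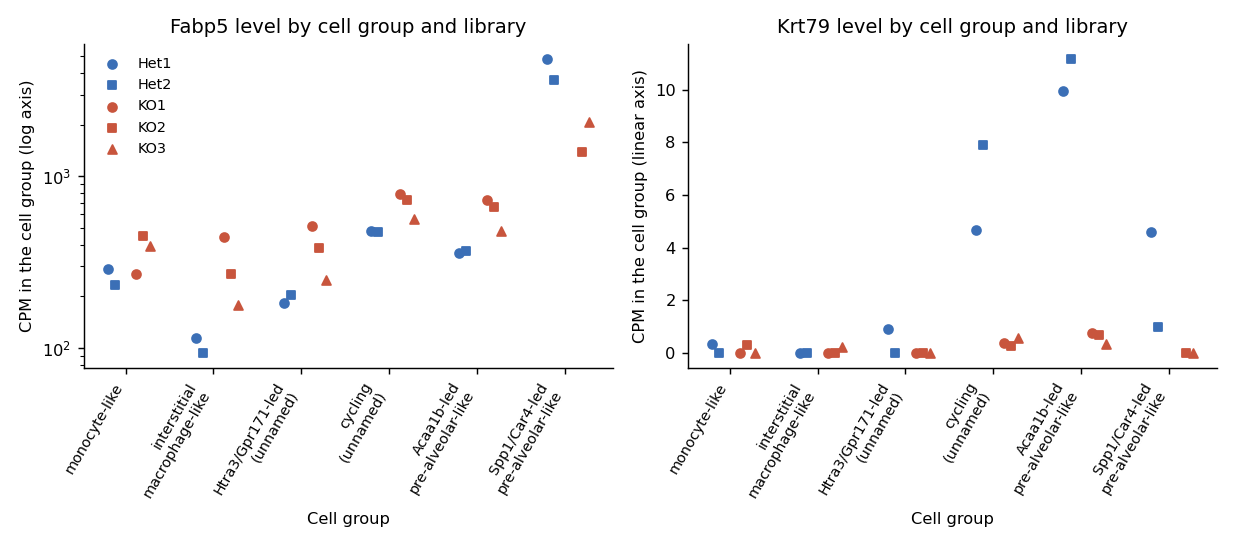
Level of Fabp5 (left, log axis) and Krt79 (right, linear axis) in CPM of each cell group, by library (blue Het, red KO). Groups with under 10 cells in a library are not drawn, which leaves out KO1 in the Spp1- and Car4-led clusters. Fabp5 is higher in all KO libraries in 4 groups and lower in the Spp1- and Car4-led clusters, and Krt79 is near 0 in each KO group.

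The counts that follow are of genes chosen for their difference between these libraries, taken again in subsets of the same cells, so nothing is read from them or from the share of all genes beside them. In the pre-alveolar sums 5 of the 10 genes were called lower in KO, Fabp4, Fabp5, Atp6v0d2, Krt79 and Olr1, where 3.54% of the genes tested were. In the Acaa1b-led cluster alone 1 was called lower, Krt79, where 0.281% of genes were, and 1 higher, Fabp5, where 0.146% were. With the Spp1- and Car4-led clusters taken out of the immune sums, 8 were called lower, where 3.72% of genes were, and Fabp4 and Fabp5 were not called. The cycling clusters had 8 called lower, where 1.39% of genes were. The Htra3-led cluster had 3 of 7 genes tested called lower, Fabp4, Olr1 and Ear2, where 1.83% of genes were, and Fabp5 called higher, where 1.12% were. At Leiden resolution 0.5, and with the 10 genes kept among the clustering genes, only Spp1-, Car4- and Car6-led clusters kept the pre-alveolar name. In the latter the Acaa1b-led cluster was unnamed, with a mean log2 fold of 0.96. KO1 then had 1 cell in the class, which could not be fitted. It was not fitted either with mixed cells left out, where KO1 kept 22 cells.

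**Figure D5:**
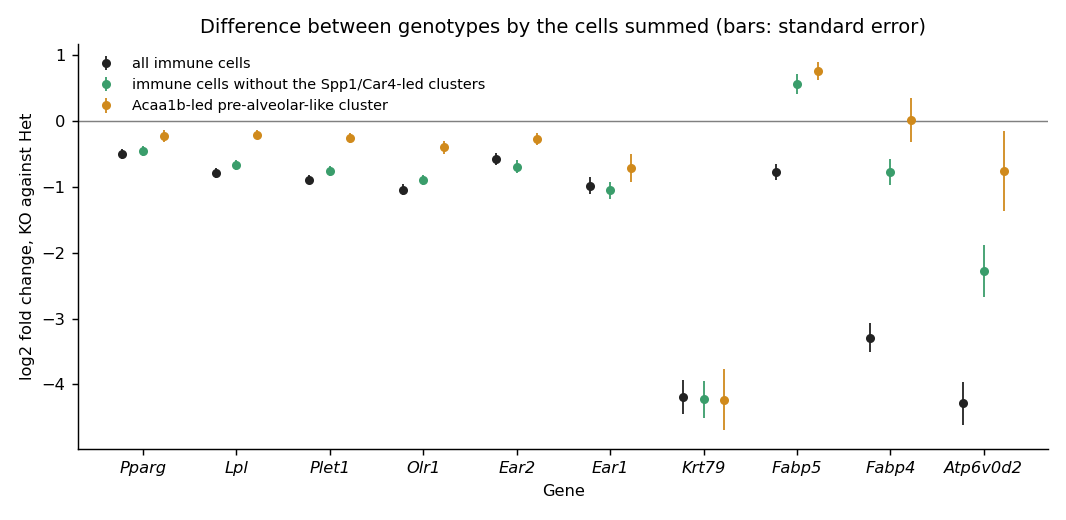
Log2 fold change of KO against Het with its standard error for each gene, over all immune cells (black), immune cells without the Spp1- and Car4-led clusters (green) and the Acaa1b-led cluster alone (orange). Krt79 stays near -4.2 in all 3, Fabp4 moves from -3.29 to 0.01, and Fabp5 moves from -0.77 to 0.75.

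Interstitial macrophage-like and monocyte-like cells held little of most of these genes. Of the 10, 6 were tested in interstitial macrophage-like sums and none was called, where 1.38% of the genes tested were. Without KO1 or without KO3, Fabp5 was called higher there, but these fits also called more of all genes, and nothing is read from it. Lpl, at 101 and 99.0 CPM in Het and 162, 151 and 127 in KO, and Pparg, at 5.44 and 2.21 in Het and 10.6, 6.48 and 9.40 in KO, were higher in each KO library, and Fabp4, at 7.08 and 6.09 in Het and 5.11, 1.54 and 2.75 in KO, was lower. The groups did not overlap for 30.4% of all genes tested there. In monocyte-like sums 7 were tested and none called, where 0.00% of 9492 genes were by edgeR (892 genes at an unadjusted p under 0.05, and 17 called by DESeq2). Ear2 was at 58.1 and 58.2 CPM in Het monocyte-like cells and at 18.49, 25.7 and 32.9 in KO, a log2 fold change of -1.08 (SE 0.18), and DESeq2 called it. Without KO1, edgeR called Ear2 lower and Fabp5 higher in monocyte-like sums, but that fit also called many other genes, and nothing is read from it. The median depth of interstitial macrophage-like cells was 7014 and 6392 UMIs in Het and 8401 to 9715 in KO.

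With cells thinned to 3000 UMIs, the median number of the 10 genes with a UMI was 4 in the Acaa1b-led cluster of each of the 5 libraries. It was 4.5 and 4 in the Spp1- and Car4-led clusters of Het, 3 in the Htra3-led cluster of each library and 1 in monocyte-like cells of each library. At least 3 of the genes were found in 94.4% and 94.5% of cells of the Acaa1b-led cluster in Het and in 97.6%, 94.2% and 90.9% in KO. In monocyte-like cells the share was at most 2.33% in any library. A count of this kind is carried by the abundant genes and does not register the level of a rare one such as Krt79.

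Outside the immune cells, a few of the genes were expressed by other lineages. Fabp4 was at 310 and 212 CPM in Het endothelial sums and at 591, 146 and 492 in KO, with overlapping groups, and at 112 to 353 CPM in mesenchymal sums. Fabp5 was at 1307 and 1071 CPM in Het epithelial sums and at 460, 382 and 586 in KO, a log2 fold change of -1.32 (SE 0.17). Fabp5, Lpl and Plet1 were called lower in epithelial sums, where 778 of 14530 genes were called lower and 8.91% in either direction. Leaving out cells that carry markers of another lineage kept 121 to 370 epithelial cells per library, of 306 to 829. The epithelial log2 fold changes were then -0.89 for Fabp5, -1.47 for Lpl and -0.25 for Plet1, and with a sex covariate -1.02, -0.82 and -1.73. In endothelial sums Lpl alone was called, at 60.5 and 57.0 CPM in Het and 28.1, 20.3 and 17.5 in KO. There 549 of 11448 genes were called lower and 6.96% in either direction. None was called in mesenchymal sums, where 0.0584% of genes were (8 genes, and 1678 at an unadjusted p under 0.05). Krt79, Ear1 and Atp6v0d2 stayed at 2.01 CPM or less in each epithelial sum.

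Other genes of alveolar macrophages mostly moved with the 10 in the immune sums. This list and those below were fixed with earlier results of these data known. Of the genes of this list called lower, Ctsk, Car4, Marco, Trim29, Il1rn, Cidec, Itgax and F7 are also among the markers used to name the pre-alveolar clusters. Their calls therefore give no separate support. Of 22 tested genes of that list, 14 fell and 1 rose by edgeR's adjusted p, where 7.70% of all genes were called in either direction, and the median log2 fold change was -0.94 against 0.01 over all genes. Ctsk, a lysosomal protease, fell from 10.2 ± 4.73 CPM (SD, n = 2) in Het to 1.37 ± 0.280 CPM (SD, n = 3) in KO, with an edgeR adjusted p of 0.00233. Car4, a carbonic anhydrase that also leads a cluster named above, fell from 126 CPM ± 14.6 to 17.7 ± 7.11 (edgeR adjusted p 0.00136). Marco, a scavenger receptor, fell from 54.2 CPM ± 11.8 to 14.0 ± 5.12 (edgeR adjusted p 0.00288). Trim29 fell from 15.3 CPM ± 0.136 to 4.01 ± 1.22 (edgeR adjusted p 0.00185). The exception was Mrc1, the mannose receptor that interstitial macrophages share, which rose by a log2 value of 0.54 (edgeR adjusted p 0.0104). With the Spp1- and Car4-led clusters left out, 9 of 20 tested fell and 1 rose, and Ctsk did not pass (edgeR adjusted p 0.388).

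Over all genes in the immune sums, 4.40% were called lower in KO and 7.70% in either direction. Of the upstream signals and regulators, 4 of 24 tested fell and none rose. They were Nr1h3, the lipid-sensing receptor LXR alpha (log2 fold change -0.74, SE 0.07, edgeR adjusted p 0.00139), Cebpb (-0.37, edgeR adjusted p 0.0408), Bhlhe40 (-0.35, edgeR adjusted p 0.0128) and Csf2ra, the GM-CSF receptor chain (-0.33, edgeR adjusted p 0.00829). The list's median was -0.17. Cebpb and Bhlhe40 did not pass without Het1, without Het2 or with a sex covariate, and Csf2ra did not without Het1 or without Het2. Of 25 tested genes of lipid uptake, storage and efflux, 11 fell and 2 rose, with a median of -0.26. Hilpda, which encodes a lipid droplet protein, fell from 185 CPM ± 4.95 to 84.5 ± 12.2 (edgeR adjusted p 0.00136), and with the Spp1- and Car4-led clusters left out its log2 fold change was 0.11. Mgll (-0.71), Plin2 (-0.53) and Angptl4 (-0.53) fell as well, with edgeR adjusted p of 0.00647, 0.00239 and 0.0145. Angptl4 did not pass without Het1, without Het2 or with a sex covariate, and Mgll and Plin2 did not without Het2. With the Spp1- and Car4-led clusters left out, 5 of the 25 lipid genes fell and 3 rose, and Mgll did not pass. Apoe (1.21, edgeR adjusted p 0.0246) and Abca1 (0.89, edgeR adjusted p 0.011), which act in cholesterol efflux, rose.

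The lists that follow stand beside the same share of all genes called in either direction, 7.70%. Of the other vacuolar ATPase subunits, 3 of 16 tested fell and 1 rose, with a median log2 fold change of -0.14. The falls were those of Atp6v1c1 (-0.31, edgeR adjusted p 0.0144), Atp6v1b2 (-0.29, edgeR adjusted p 0.0406) and Atp6v0e (-0.24, edgeR adjusted p 0.0437), and the rise that of Atp6v0a1 (0.28, edgeR adjusted p 0.0417). None of these differences came near that of Atp6v0d2. With the Spp1- and Car4-led clusters left out, none of the 3 falls passed the adjusted p, though none turned to a rise. Markers of the neighbouring cells moved in the same sums. They were also used to name the clusters, so their calls are not separate from the cell shares given below. Of 17 interstitial macrophage markers 12 rose and none fell, with a median of 1.05, among them Ms4a7 (1.65, edgeR adjusted p 0.00225) and C1qb (1.38, edgeR adjusted p 0.00935). Of 15 monocyte markers 6 fell and 1 rose, with a median of -0.37, among them Treml4 (-0.77, edgeR adjusted p 0.00185) and Cx3cr1 (0.91, edgeR adjusted p 0.0119). The interstitial macrophage-like clusters made up 9.92% and 9.57% of immune cells in Het and 28.5%, 19.9% and 21.0% in KO. The monocyte-like clusters made up 14.8% and 14.39% in Het and 8.507%, 20.02% and 16.35% in KO, with overlapping groups. Of the 28 genes of these lists taken by the naming rule, 16 did not pass without Het1, 19 without Het2 and 16 with a sex covariate. Those lost in all 3 included the 4 ATPase subunits named here and the rises of C1qb, Apoe, Abca1, Mrc1 and Cx3cr1.

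Over the 17 immune clusters of Het libraries with at least 50 cells, the genes most like Pparg by Pearson correlation of log CPM were Nr1h3 (0.97), Sh3tc1 (0.96), Chst1 (0.95), Tent4b (0.95) and Nceh1 (0.95). Those most like the mean of the 10 genes were Trim29 (0.98), Gm13546 (0.96), Slc7a2 (0.96), Nrg4 (0.96) and Lonrf3 (0.95). Among the 10 themselves, Fabp4 and Atp6v0d2 correlated at 0.97 and Pparg and Ear2 at 0.94, while Ear2 and Atp6v0d2 correlated at 0.29. The points are clusters of the same 2 libraries with unequal depth, and the values are a description.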

How the data were processed

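UMI counts per gene and barcode were deposited by the authors as whole numbers, made with Cell Ranger 4.0.0 on mm10 per the submitters' processing notes. The filter behind the deposited barcodes and the use of strand and multiply mapped reads are not given in the sources used here. Barcodes under 500 genes or over 15% mitochondrial UMIs were dropped, and the highest doublet scores were removed at 0.8% per 1000 cells. Total depth was 93708304 (Het1), 83659532 (Het2), 56608582 (KO1), 71749925 (KO2) and 85380967 (KO3) UMIs.

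Cells were clustered by the Leiden method (resolution 1, 2000 variable genes, 30 principal components), then the immune cells again, without the 10 genes. A class needed 3 markers, each in at least 20% of cells with a log2 fold above 0.5, and a mean log2 fold above 1. These names were rebuilt here and can differ from the study's own. The members, the lists and the markers were chosen with earlier results of these data known.

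UMIs were summed per library and class and compared with edgeR 4.0.16 (TMM, filterByExpr, quasi-likelihood, two-sided, Benjamini-Hochberg adjusted p under 0.05). Single genes in Het and KO sums are in CPM of TMM-scaled totals, and levels by cell group are in CPM of the unscaled total. The spread is that between embryos. An exact permutation test of 2 against 3 libraries cannot go below a two-sided p of 0.2. With 200 genes set to a log2 change of 1 in simulated data, the immune fit recovered 99.5% with 22 false calls among 13695 genes, and 8 genes were called among 13685 with no change. The genes named were all 10 members, per list in the immune sums up to 4 called genes of largest change in each direction whose higher group averaged 10 CPM or more (values for some are left out), and the 5 genes most like Pparg and most like the members' mean. Coordinates are from GENCODE on GRCm38, counted from 1, and promoters from RefSeq on GRCm38.p6. Alternatives were DESeq2 1.42.0, library size alone, no low-count filter, doublets kept, stricter cell limits (1000 genes, 10% mitochondrial UMIs), cells with UMIs of 3 or more markers of another lineage left out, other clusterings, a replicate block, a sex covariate and each library left out. Sums without the Spp1- and Car4-led clusters, of the Acaa1b-led cluster alone and of the unnamed clusters were chosen after seeing the data.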

Additional observations from a re-analysis of the deposited data

Results flagged for a closer look

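Some genes were higher in every KO library in one group of cells and lower in every KO library in another, and the difference between those groups was not tested. Fabp5 had a log2 fold change of -1.32 in epithelial sums, and of 0.75 in the Acaa1b-led cluster, 0.94 in the Htra3-led cluster, 0.54 in the cycling clusters and 1.45 in interstitial macrophage-like sums. Lpl had -0.21 in the Acaa1b-led cluster, -0.20 in the Htra3-led cluster, -0.44 in the cycling clusters, -1.11 in epithelial and -1.44 in endothelial sums, and 0.55 in interstitial macrophage-like sums. Pparg had -0.23 in the Acaa1b-led cluster, -0.28 in the cycling clusters, 1.19 in interstitial macrophage-like sums and 1.20 in endothelial sums. Pparg stayed at or below 10.6 CPM in the last 2 sums, and the part of free RNA in these levels was not tested.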

How the results depend on the processing

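In the immune sums all 10 genes kept a negative log2 fold change under each alternative but 1, given below. Fabp5 was not called with mixed cells left out (-0.45), Ear1 and Ear2 were not with the sex covariate, and Fabp5, Ear2 and Pparg were not without Het1 or without Het2. In the pre-alveolar sums 3 to 7 of the 10 were called lower across the alternatives other than sums of other clusters, and Ear1, Ear2 and Pparg in none of them. The calls over all genes shifted too, as given below, and nothing is read from these counts of members. With the Spp1- and Car4-led clusters left out, an alternative chosen after seeing the data, Fabp5 turned to 0.56 and Hilpda to 0.11. With the Acaa1b-led cluster alone in place of the pre-alveolar sums, Fabp5 turned to 0.75 and Fabp4 to 0.0123. Here the makeup of the sum is what changed.

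Over all genes, 1070 were called in the immune sums, 311 with the sex covariate and 221 to 1341 with 1 library left out, the lowest without Het2, then Het1 (238), and 679 without KO2. Of the companion genes 54 were called, 28 with the sex covariate and 24 to 64 with 1 library left out. In the pre-alveolar sums 438 were called, 271 by DESeq2, 105 with no low-count filter, 234 with doublets kept, 93 with the sex covariate, 135 at Leiden resolution 2, 41 in the Acaa1b-led cluster alone, 1422 with the unnamed clusters added, and 97 (without Het2) to 561 with 1 library left out, with 175 without Het1, 239 without KO2 and 275 without KO3. In the interstitial macrophage-like sums 141 were called, 547 with no low-count filter, 63 with mixed cells left out, 54 with the sex covariate, and 1 (without Het1) to 272 (without KO1) with 1 library left out, with 49 without Het2, 28 without KO2 and 224 without KO3. In the monocyte-like sums none was called, 17 by DESeq2, 306 with no low-count filter, and 0 to 342 (without KO1) with 1 library left out, with 9 without KO3. The cause of these shifts was not tested.

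A replicate block, pairing Het and KO libraries of the same number, gave 1205 calls in the immune, 259 in the pre-alveolar, 645 in the interstitial macrophage-like and 11 in the monocyte-like sums. Same-numbered libraries deviated together by a correlation of 0.098 and 0.079, so the numbers were not taken to pair the embryos. Class fits of pre-alveolar cells at Leiden resolution 0.5, with the 10 genes kept in the clustering and with mixed cells left out were not run, since KO1 kept too few cells. In both of these other clusterings the Acaa1b-led cells lost the pre-alveolar name, which left KO1 with 1 cell of the class. The name of that cluster therefore depends on the clustering. Thinning lowered the shares of cells with a UMI of rare genes most, and Krt79 rests on 15 KO UMIs.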
